A study of Mus musculus with 6 samples.

Results

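The 10 genes described here encode the enzymes that make, desaturate and elongate fatty acids: Acly, Acaca, Fasn, Scd1, Scd2, Fads1, Fads2, Elovl1, Elovl5 and Elovl6. They were chosen by name as enzymes of these steps, and all 10 were found among the 14774 genes of the deposited table and passed the filter on low counts that left 11939 genes for testing. The study sequenced total RNA of the untreated mouse Leydig tumor line MA-10 (labelled wild type, 3 libraries) and of untreated STARKO1 cells (labelled STAR KO, 3 libraries). STARKO1 is 1 clone, expanded from a single MA-10 cell in which CRISPR/Cas9 had been directed at Star, so the loss of Star and the properties of that clone cannot be told apart. The labels do not say whether libraries of a cell line came from separate cultures, and p-values therefore measure only the spread between these libraries, which may be technical.

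Cells build fatty acids from citrate that leaves the mitochondria. Citrate is cleaved to acetyl-CoA, acetyl-CoA is carboxylated to malonyl-CoA, and fatty acid synthase joins these units into palmitate. Elongases of the endoplasmic reticulum then lengthen the chain and desaturases insert double bonds, and the products are built into phospholipids, triglycerides and the cholesteryl esters that Leydig cells hold in lipid droplets as a reserve for steroid synthesis. Many of these genes are classical targets of the transcription factor SREBP-1, encoded by Srebf1, and of the liver X receptors.

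The total count was between 14114351 and 17641664 in the MA-10 libraries and between 14438952 and 19530062 in the STARKO1 libraries. MA-10 replicate 1 stood apart from the other MA-10 libraries. Pearson's r of log2 CPM across the 11939 genes, which are not independent replicates, reached 0.956 to 0.959 between MA-10 replicate 1 and the STARKO1 libraries, and was as low as 0.897 between MA-10 libraries. The 7SL RNA, a structural RNA used in protein secretion, held 1.81%, 14.4% and 6.63% of all reads counted for MA-10 replicates 1 to 3 and between 1.82% and 2.37% in STARKO1. Star, the targeted gene, fell in STARKO1, with a mean of 77.2 ± 27.8 CPM in MA-10 and 2.27 ± 0.386 CPM in STARKO1 (SD, n = 3 each), where CPM is the count scaled by the library size with edgeR's TMM method (log2 fold change -5.09, adjusted p = 0.00121, edgeR's quasi-likelihood test). All 8 Leydig cell markers were listed, and 2 of them, Star and Hsd3b1, were lower in STARKO1. Of the markers of other cells, 1 of 6 for Sertoli cells, 1 of 6 for germ cells, 2 of 5 for macrophages, 2 of 5 for peritubular cells and 2 of 4 for endothelium were listed. The summed level of the endothelial pair was between 26.4 and 41.5 CPM in MA-10 and between 118 and 124 CPM in STARKO1, nearly all of it Cdh5. Cdh5 was higher in STARKO1 (33.8 ± 7.61 against 121 ± 3.01 CPM, SD, n = 3 each, adjusted p = 0.00596 by edgeR). The level of the single Sertoli marker, Rhox5, was between 314 and 503 CPM in MA-10 and between 547 and 568 CPM in STARKO1. The summed peritubular markers were between 3.12 and 7.66 CPM in MA-10 and between 0.337 and 0.430 CPM in STARKO1, and Pdgfra among them was lower in STARKO1 (5.12 ± 2.07 against 0.0580 ± 0.0590 CPM, SD, n = 3 each, adjusted p = 0.00595 by edgeR). The summed germ cell and macrophage markers stayed at or under 9.85 CPM in every library. The part of these markers in the results was not tested.

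To examine whether fatty acid synthesis genes differed with the loss of Star, the MA-10 and STARKO1 libraries were compared in a fit over all genes. None of the 10 genes passed an adjusted p of 0.05 (0 of 10, edgeR's quasi-likelihood test), where 9.04% of all genes tested did, 4.3% being higher and 4.74% lower in STARKO1. At an unadjusted p under 0.05, 3 of the 10 differed, Acly, Elovl5 and Elovl1, where 37.6% of all genes did, and DESeq2 called 2 of the 10, Acly and Elovl5, both higher, where it called 22.9% of all genes, 8.74% higher and 14.2% lower. With scaling by library size alone 0 of the 10 passed, where 2.76% of all genes did. The log2 fold change was above 0 for 8 of the 10 genes, against 47.1% of all genes tested, and the median over the 10 was 0.24, against -0.05 over all genes. The 3 libraries of one cell line lay all above the 3 of the other for 4 of the 10 genes (Acly, Elovl5 and Fads2 higher in STARKO1, Elovl1 lower), where this held for 42.5% of all genes, 21.5% higher and 21.0% lower. Without MA-10 replicate 1, edgeR called 7 of the 10 genes, all higher in STARKO1, where 65.7% of all genes passed, 34.0% higher and 31.7% lower.

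**Figure D1:**
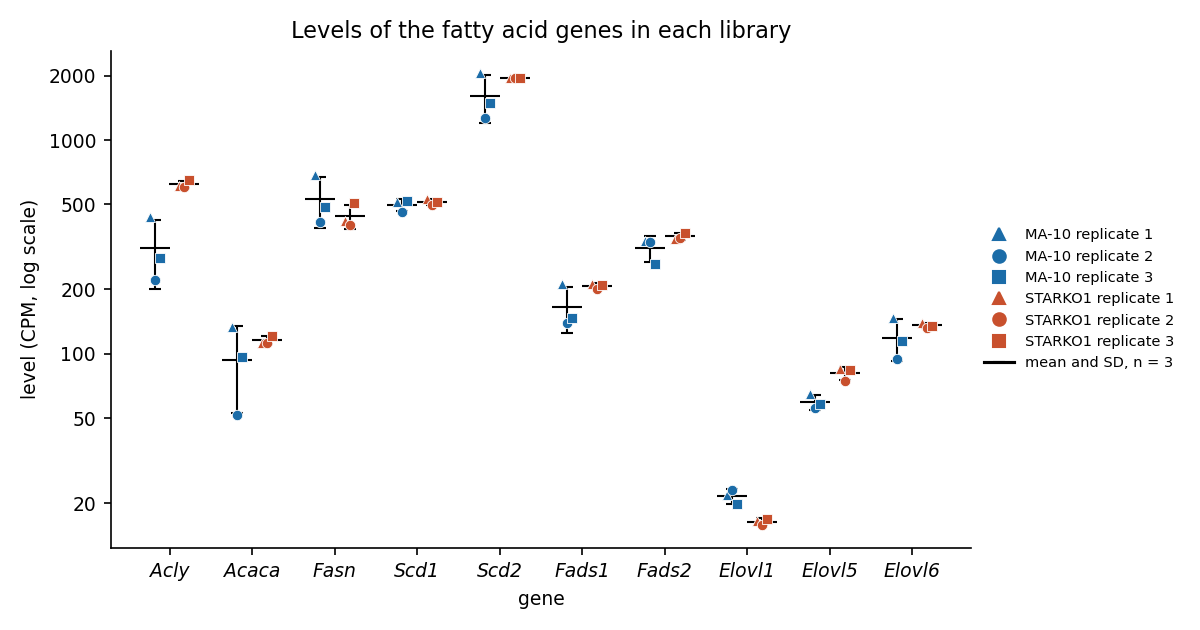
Level of each of the 10 genes in CPM on a log axis, with triangles, circles and squares for replicates 1, 2 and 3, blue for MA-10 and orange for STARKO1, and black bars for the mean and SD (n = 3). The Acly levels of the STARKO1 libraries (607 to 649 CPM) sit above all MA-10 levels (220.3 to 435 CPM), and MA-10 replicate 1 is the highest MA-10 library for 8 of the 10 genes.

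Acly encodes ATP citrate lyase, which cleaves citrate to the acetyl-CoA used for fatty acids and sterols (chromosome 11 of GRCm38, 100476353 to 100528000, minus strand). MA-10 replicates 1 to 3 had 7601, 2540 and 3190 counts of Acly, which are 435, 220.3 and 281 CPM. STARKO1 replicates 1 to 3 had 14194, 10290 and 11553 counts, which are 611, 607 and 649 CPM. Every STARKO1 library was above every MA-10 library, and MA-10 replicate 1 was nearest to them. The means were 312 ± 111 CPM and 622 ± 23.5 CPM (SD, n = 3 each), and the log2 fold change of 0.99 was the highest of the 10 genes (standard error 0.284, 95% interval 0.32 to 1.67). It missed the threshold with an adjusted p of 0.0661 by edgeR's quasi-likelihood test. DESeq2 gave an adjusted p of 0.00625 for Acly, and leaving out MA-10 replicate 1 gave a log2 fold change of 1.40 with an adjusted p of 0.000114.

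Acaca encodes acetyl-CoA carboxylase 1, which makes malonyl-CoA and commits acetyl-CoA to fatty acid synthesis (chromosome 11, 84129672 to 84401651, plus strand). Its level was 133, 51.5 and 96.7 CPM in MA-10 replicates 1 to 3 and 113, 112 and 121 CPM in STARKO1 replicates 1 to 3. The STARKO1 levels lay inside the MA-10 range, so the cell lines overlapped, and the MA-10 libraries had a coefficient of variation of 43.6%, the widest of the 10 genes. The log2 fold change of Acaca was 0.30 (standard error 0.328, adjusted p = 0.516). Reads of Acaca can be shared with its processed pseudogene Gm5182, because 5016 of the 17201 different 50-base windows of the Acaca transcripts also occur in Gm5182. The deposited Acaca counts were not whole in any of the 6 libraries, and Gm5182 itself was listed with at most 211 counts, so the level of Acaca is uncertain by how these reads were divided.

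Fasn encodes fatty acid synthase, which assembles palmitate (chromosome 11, 120805846 to 120824547, minus strand). Its level was 688, 416 and 485 CPM in MA-10 replicates 1 to 3 and 419.8, 400.4 and 507 CPM in STARKO1 replicates 1 to 3. The highest library was MA-10 replicate 1 and the lowest STARKO1 replicate 2, and the cell lines overlapped. Fasn and Elovl1 were the genes with a log2 fold change below 0, which for Fasn was -0.26 (standard error 0.252, 95% interval -0.86 to 0.34, adjusted p = 0.461). Without MA-10 replicate 1 it was 0.0601, where the median over all genes was 0.06. Scaling by library size alone gave 0.10 for Fasn but raised the median over all genes by 0.43, and relative to the median Fasn was -0.27 with that scaling and -0.21 with TMM.

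The stearoyl-CoA desaturases SCD1 and SCD2 insert the first double bond into saturated chains and so make oleate and palmitoleate. Their genes are neighbours on chromosome 19 (Scd2 from 44293674 to 44306864, plus strand, and Scd1 from 44394455 to 44407879, minus strand). Scd2 had 2054, 1266 and 1495 CPM in MA-10 replicates 1 to 3 and 1964, 1954 and 1946 CPM in STARKO1 replicates 1 to 3. The 3 STARKO1 libraries were nearly equal (coefficient of variation 0.473%), while the MA-10 libraries reached from below to above them (25.3%). The log2 fold change of Scd2 was 0.28 (standard error 0.264, adjusted p = 0.443). Scd1 had 514, 463 and 517 CPM in MA-10 replicates 1 to 3 and 531, 499 and 513 CPM in STARKO1 replicates 1 to 3. The libraries of both cell lines were intermingled, and the log2 fold change of Scd1 was 0.05, the nearest to 0 of the 10 genes (standard error 0.179, adjusted p = 0.857). Its 95% interval reached from 0.770-fold to 1.39-fold, so the value near 0 does not show equal levels.

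Counts of these desaturases are uncertain where their transcripts are identical. The coding sequences of Scd1 and Scd2, from 1 GENCODE transcript each, were identical at 90.3% of the aligned bases, and 4.56% of the 50-base windows of Scd1 and 3.97% of those of Scd2 occurred in transcripts of another gene, in Scd3, Scd4 and each other among others. The longest run that both coding sequences share has 147 bases and crosses the junction of exons 4 and 5. It is shown because a read inside it cannot tell the genes apart. On GRCm38 it lies within chr19:44400341-44401805 in Scd1 (minus strand) and chr19:44299702-44301245 in Scd2 (plus strand), with an intron between its parts.

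Scd1 and Scd2, shared coding run: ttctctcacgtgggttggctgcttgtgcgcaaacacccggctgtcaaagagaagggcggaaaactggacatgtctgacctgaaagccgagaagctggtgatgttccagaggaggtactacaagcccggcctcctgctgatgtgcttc

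The deposited counts of Scd1 were not whole in any of the 6 libraries and those of Scd2 in 4. Scd3, the next gene of this cluster, had between 1 and 6 counts in every library and was not tested. Scd4 and Fads3 were not among the genes analysed here. Counts were also not whole for Acly and Fasn (4 libraries each) and for Fads1 (5), of which no 50-base window occurred in another gene. Those of Elovl6 were not whole in 5 libraries, and 3.98% of its windows occurred in another gene. A fractional count therefore does not by itself mark a 50-base window shared with another annotated transcript. Near-identical copies and sequence outside annotated transcripts were not searched.

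FADS2 and FADS1 are the desaturases of polyunsaturated fatty acid synthesis, FADS2 acting before and FADS1 after an elongation step. Both genes lie on chromosome 19 (Fads2 from 10062765 to 10101746, minus strand, and Fads1 from 10182888 to 10196877, plus strand). Fads2 had 338, 334 and 263 CPM in MA-10 replicates 1 to 3 and 346, 348 and 369 CPM in STARKO1 replicates 1 to 3. Every STARKO1 library was above every MA-10 library, by a margin from 338 to 346 CPM that was smaller than the spread within either cell line. On the log2 scale the fold change of Fads2 was 0.18 (standard error 0.187, adjusted p = 0.481). Fads1 had 212, 139 and 147 CPM in MA-10 replicates 1 to 3 and 212, 202 and 209 CPM in STARKO1 replicates 1 to 3. MA-10 replicate 1 lay among the STARKO1 libraries and the other MA-10 libraries lay below them. The log2 fold change of Fads1 was 0.32 (standard error 0.211, adjusted p = 0.286), and it was 0.63 with an adjusted p of 0.00141 when MA-10 replicate 1 was left out.

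Of the elongases, ELOVL5 acts mainly on polyunsaturated chains, ELOVL6 on palmitate and other chains of similar length, and ELOVL1 on very long saturated and monounsaturated chains. Elovl5 (chromosome 9, 77917364 to 77984519, plus strand) had 64.8, 55.6 and 58.0 CPM in MA-10 replicates 1 to 3, and 84.4, 74.4 and 83.7 CPM in STARKO1 replicates 1 to 3. All STARKO1 libraries were above all MA-10 libraries. The log2 fold change of Elovl5 was 0.44 (standard error 0.149, 95% interval 0.09 to 0.80), with an adjusted p of 0.0872 by edgeR and 0.0292 by DESeq2. The deposited counts of Elovl5 and Fads2 were whole in every library. No 50-base window of Elovl5 and 5 of the 3291 windows of Fads2 occurred in another gene.

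Elovl1 (chromosome 4, 118428093 to 118432953, plus strand) had 21.7, 23.1 and 19.8 CPM in MA-10 replicates 1 to 3 and 16.5, 15.7 and 16.9 CPM in STARKO1 replicates 1 to 3. The STARKO1 libraries were all below the MA-10 libraries. Its log2 fold change was -0.40 (standard error 0.148, 95% interval -0.75 to -0.0445, adjusted p = 0.105), and it was 0.0464 with scaling by library size alone. Relative to the median over all genes, Elovl1 was -0.33 with that scaling and -0.35 with TMM. With offsets for gene length it was -0.26 (95% interval -0.61 to 0.08), or -0.24 relative to the median. The upper bound was also positive with DESeq2, upper quartile scaling, no filter on low counts and the replicate number in the fit. It was negative with at least 10 counts in every library, the 50 most abundant genes removed and unrounded counts. Elovl1 shares 53 exonic bases with Cdc20 on the opposite strand, and the sources used here do not say whether strand was used in counting. Elovl6 (chromosome 3, 129532355 to 129638495, plus strand) had 147, 94.8 and 115 CPM in MA-10 replicates 1 to 3 and 139.6, 133 and 135 CPM in STARKO1 replicates 1 to 3. The MA-10 libraries lay on both sides of the STARKO1 libraries, and the log2 fold change of Elovl6 was 0.19 (standard error 0.199, adjusted p = 0.498).

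The MA-10 libraries spread more than the STARKO1 libraries for all 10 genes, as they did for 91.7% of all genes tested. MA-10 replicate 1 was above both other MA-10 libraries for 8 of the 10 genes, all except Scd1 and Elovl1, and the same was seen for 44.5% of all genes. Without it, the log2 fold changes of Acaca, Acly, Scd2, Fads1, Fads2, Elovl5 and Elovl6 lay between 0.34 and 1.40 with adjusted p between 0.000114 and 0.0451 (edgeR's quasi-likelihood test). Those of Fasn (0.06), Scd1 (0.16) and Elovl1 (-0.30) did not pass the threshold, with adjusted p between 0.0553 and 0.743. Leaving out MA-10 replicate 2 instead lowered several values, with log2 fold changes of 0.00475 for Acaca, 0.0479 for Elovl6 and 0.14 for Scd2. In that fit 0 of the 10 genes passed, where 511 of all 12190 genes tested did. In MA-10 replicates 2 and 3, which remain without replicate 1 in the comparison, the 7SL share of the counts is 14.4% and 6.63%. Ribosomal protein genes hold 8.68% and 7.83% of the counts there, against 4.63% in MA-10 replicate 1 and between 4.25% and 4.44% in STARKO1. The part of this difference in composition in the fold changes was not tested.

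**Figure D2:**
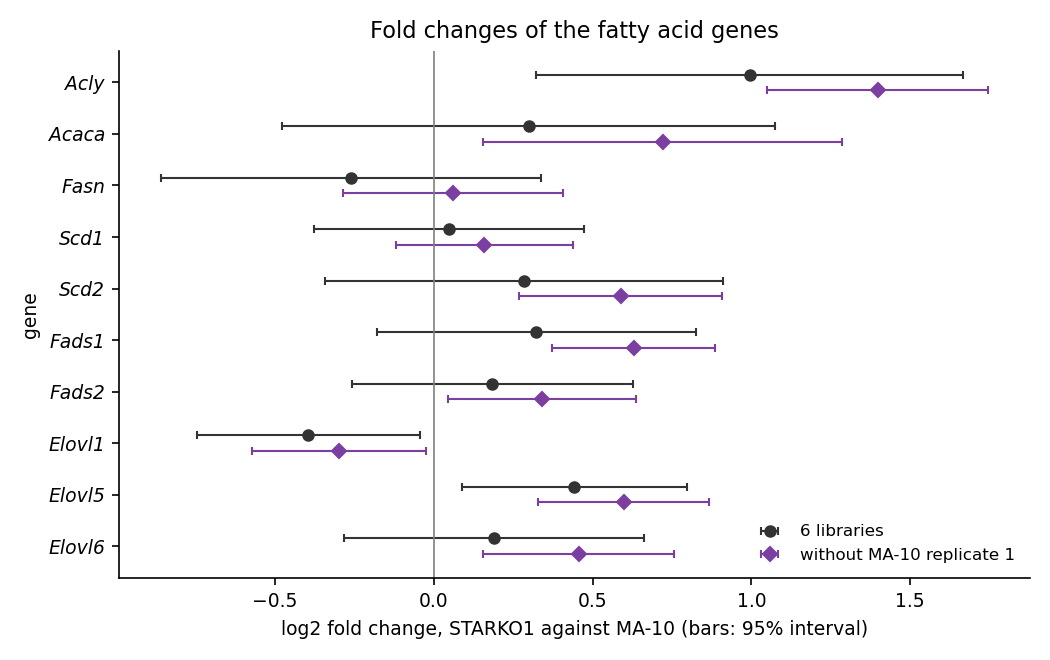
Log2 fold change of STARKO1 against MA-10 with 95% intervals from edgeR, for 6 libraries (black circles) and without MA-10 replicate 1 (violet diamonds). With 6 libraries only the intervals of Acly, Elovl1 and Elovl5 leave out 0, and without MA-10 replicate 1 every gene has a higher value and 7 intervals lie above 0.

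Together the 10 genes took 0.532% of all counts in MA-10 replicate 1, 0.200% in replicate 2 and 0.280% in replicate 3, and 0.528%, 0.510% and 0.533% in STARKO1 replicates 1 to 3. MA-10 replicate 1 thus lay among the STARKO1 libraries, and the other MA-10 libraries had smaller shares. After TMM scaling the sum of the 10 genes was 3716 ± 801 CPM in MA-10 and 4444 ± 103 CPM in STARKO1 (SD, n = 3 each). Scd2 alone made up between 41.3% and 45.0% of these counts in every library.

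Ratios between genes of one library do not depend on how libraries are scaled. Of these, 4 were tested, and they were chosen with earlier results of these data known. For Fasn to Acaca the ratio of counts was 5.17, 8.07 and 5.02 for MA-10 replicates 1 to 3, against 3.72, 3.56 and 4.18 for STARKO1 replicates 1 to 3. The ratio was lower in every STARKO1 library than in any MA-10 library, by 0.64 on the log2 scale on average (exact permutation test, two-sided, p = 0.10, the smallest that 3 libraries against 3 can give, and 0.40 after Benjamini-Hochberg adjustment over the 4 ratios). MA-10 replicate 2 had the highest ratio, and without it the log2 difference was -0.42. The ratios of Scd1 to Scd2 (0.320 ± 0.0616 against 0.263 ± 0.00766), of Fads1 to Fads2 (0.534 ± 0.108 against 0.587 ± 0.0240) and of Elovl6 to Elovl5 (1.99 ± 0.283 against 1.68 ± 0.0872, mean ± SD, n = 3, MA-10 against STARKO1) overlapped between the cell lines. Their exact permutation p-values were 0.40, 0.60 and 0.20.

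The ratio of Acly to Fasn was examined after the values had been seen and is given as a description without a test. It was 0.632, 0.530 and 0.579 for MA-10 replicates 1 to 3, against 1.45, 1.52 and 1.28 for STARKO1 replicates 1 to 3. Acly thus had fewer counts than Fasn in every MA-10 library and more than Fasn in every STARKO1 library, and MA-10 replicate 1 lay close to the other MA-10 libraries in this ratio. These are counts and not levels per length. The ratio of Acly to Acaca, also examined afterwards, was between 2.91 and 4.27 in MA-10 and between 5.36 and 5.41 in STARKO1.

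**Figure D3:**
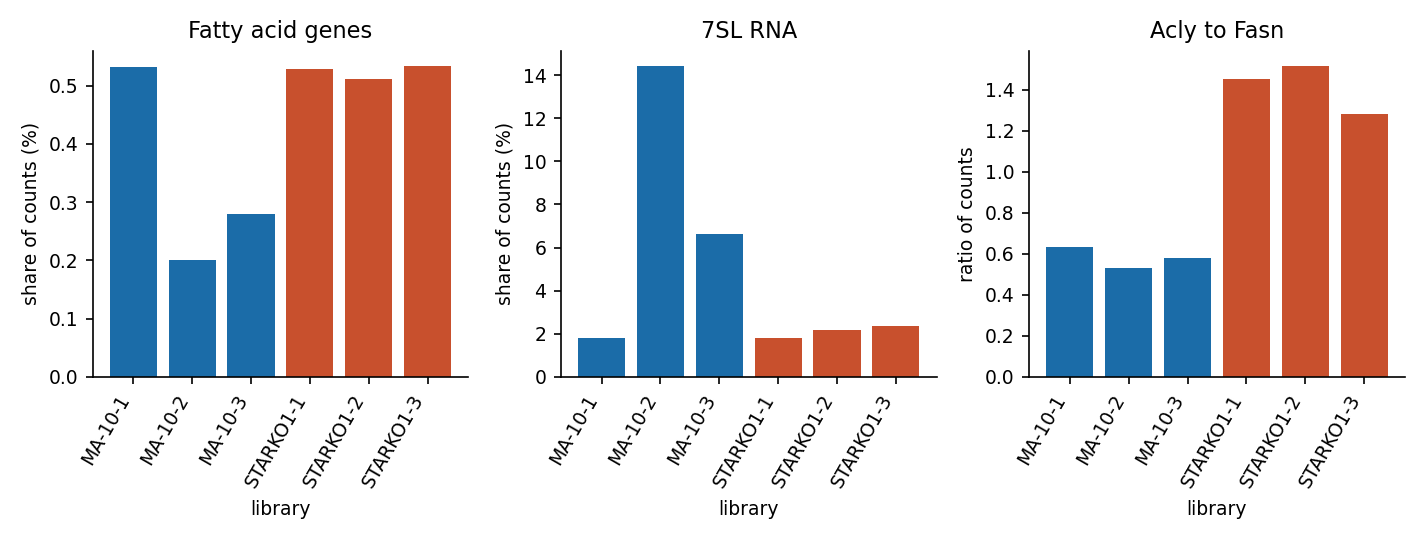
Bars from 0 for each library (blue MA-10, orange STARKO1): the share of all counts taken by the 10 genes together, the share taken by 7SL RNA, and the ratio of Acly to Fasn counts. MA-10 replicate 1 resembles the STARKO1 libraries in both shares (0.532% and 1.81%) but not in the ratio (0.632, against 1.28 to 1.52 in STARKO1).

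Levels of different genes were compared per kilobase of exon, using the merged exon length of each gene. In MA-10 cells the order was Scd2 (294 ± 74.2 CPM per kilobase), Scd1 (102 ± 6.24), Fads2 (94.6 ± 12.9), Acly (59.1 ± 21.0), Fasn (48.4 ± 12.9), Fads1 (34.5 ± 8.38), Elovl6 (18.5 ± 4.10), Elovl5 (16.9 ± 1.35), Elovl1 (7.90 ± 0.600) and Acaca (5.49 ± 2.40, SD, n = 3). Only the steps from Scd2 to Scd1, from Fads1 to Elovl6 and from Elovl5 to Elovl1 exceeded the range of the libraries, and the other neighbours overlapped. In STARKO1 cells Acly was second at 118 ± 4.45 CPM per kilobase, above Fads2 (107 ± 3.86) and Scd1 (105 ± 3.33) in every library. Fads1 (43.2 ± 1.15) and Fasn (40.4 ± 5.18) followed and overlapped, as did Elovl5 (23.0 ± 1.58) and Elovl6 (21.1 ± 0.557). Acaca (6.76 ± 0.291) was above Elovl1 (6.01 ± 0.210) in every STARKO1 library. The merged length of Acaca, 17074 bases, covers the exons of all its transcripts together, which lowers a level per kilobase where few of them are used.

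Other genes of the pathway were taken from 7 lists with 61 genes, of which 54 were listed in the table and 52 were tested. Of these, 2 rose and 3 fell in STARKO1 cells and 47 did not pass the threshold, and 28 had no overlap between the cell lines, where these shares are 9.04% and 42.5% over all genes. The median log2 fold change over the 52 genes was -0.12, against -0.05 over all genes. When the replicate number was added to the fit as a block none of the 52 passed (5 without the block), where 1.96% of all genes did, and 33 passed without MA-10 replicate 1, where 65.7% of all genes did. Of the fits that left out 1 library, each of the 5 called genes passed in only 1 or 2 of 6.

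Among 16 regulators of lipogenesis, 1 rose, 1 fell and 14 did not pass. Nr1h3, which encodes the liver X receptor alpha, had 7.33, 7.20 and 6.96 CPM in MA-10 replicates 1 to 3 and 13.2, 12.1 and 13.3 CPM in STARKO1 replicates 1 to 3. Its level rose, by 0.85 on the log2 scale (standard error 0.155, adjusted p = 0.0262 by edgeR, and 0.10 with the block), and MA-10 replicate 1 lay with the other MA-10 libraries. Prkaa2, a catalytic subunit of AMP-activated protein kinase, which inhibits acetyl-CoA carboxylase, fell from 57.6 ± 6.02 to 33.8 ± 3.29 CPM (SD, n = 3 each), a log2 fold change of -0.77 (adjusted p = 0.0372, and 0.105 with the block). Prkag1, a regulatory subunit of the same kinase, had a log2 fold change of 0.64 (adjusted p = 0.0658). Srebf1 had 101, 28.7 and 35.6 CPM in MA-10 replicates 1 to 3 and 97.5, 103 and 105 CPM in STARKO1 replicates 1 to 3. As for Fads1, MA-10 replicate 1 lay among the STARKO1 libraries and the other MA-10 libraries below, and the log2 fold change of Srebf1 was 0.88 (standard error 0.463, adjusted p = 0.200).

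Of the other elongases only Elovl4, an elongase of very long chains, was tested. It had 6, 11 and 7 counts in MA-10 replicates 1 to 3 and 73, 43 and 53 counts in STARKO1 replicates 1 to 3, and rose by 2.21 on the log2 scale (standard error 0.394, adjusted p = 0.0247 by edgeR, and 0.0761 with the block). Per kilobase its level in STARKO1 cells was 0.953 ± 0.104 CPM, below the 6.01 ± 0.210 of Elovl1. None of the 5 tested partners of the elongation cycle passed the threshold, with a median log2 fold change of -0.31. Of these, Hacd1 (-1.28, adjusted p = 0.0732) and Hacd2 (0.45, adjusted p = 0.102), which remove water in the cycle, had values of opposite sign, and Tecr, the last reductase of the cycle, had -0.68 (adjusted p = 0.247).

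Of 5 tested genes for other desaturases and their electron donors, Cyb5r1, a cytochrome b5 reductase, fell from 44.1 ± 7.32 to 23.2 ± 2.88 CPM (SD, n = 3 each), a log2 fold change of -0.92 (adjusted p = 0.0347 by edgeR, and 0.0790 with the block). Cyb5a, which encodes the cytochrome b5 that passes electrons to the desaturases, had a log2 fold change of -1.59 (adjusted p = 0.0623), and Fads6 had 0.78 (adjusted p = 0.133). Of 11 tested acyl-CoA synthetases, thioesterases and acyl-CoA binding proteins, the thioesterase gene Them4 fell from 5.21 ± 1.21 to 2.45 ± 0.190 CPM (SD, n = 3 each), a log2 fold change of -1.09 (adjusted p = 0.0465, and 0.105 with the block). Acbd3 (-0.88, adjusted p = 0.0643) and Acot9 (-1.29, adjusted p = 0.0747) did not pass.

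None of the 8 genes that supply acetyl-CoA, malonyl-CoA and NADPH passed, with a median log2 fold change of 0.01. Acacb, the acetyl-CoA carboxylase of the mitochondrial surface, had a log2 fold change of 0.34 (adjusted p = 0.458). Pgd (0.57, adjusted p = 0.182) and G6pdx (-0.23, adjusted p = 0.306), the NADPH-producing enzymes of the pentose phosphate pathway, had values of opposite sign, and Mlycd, which degrades malonyl-CoA, had 0.71 (adjusted p = 0.267). Of the 6 tested genes of mitochondrial fatty acid synthesis, a separate pathway that supplies lipoic acid, none passed. Ndufab1, its acyl carrier protein, had a log2 fold change of -1.94 (adjusted p = 0.0708), Mecr had -0.57 (adjusted p = 0.0858) and Mcat had 0.99 (adjusted p = 0.0859).

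**Figure D4:**
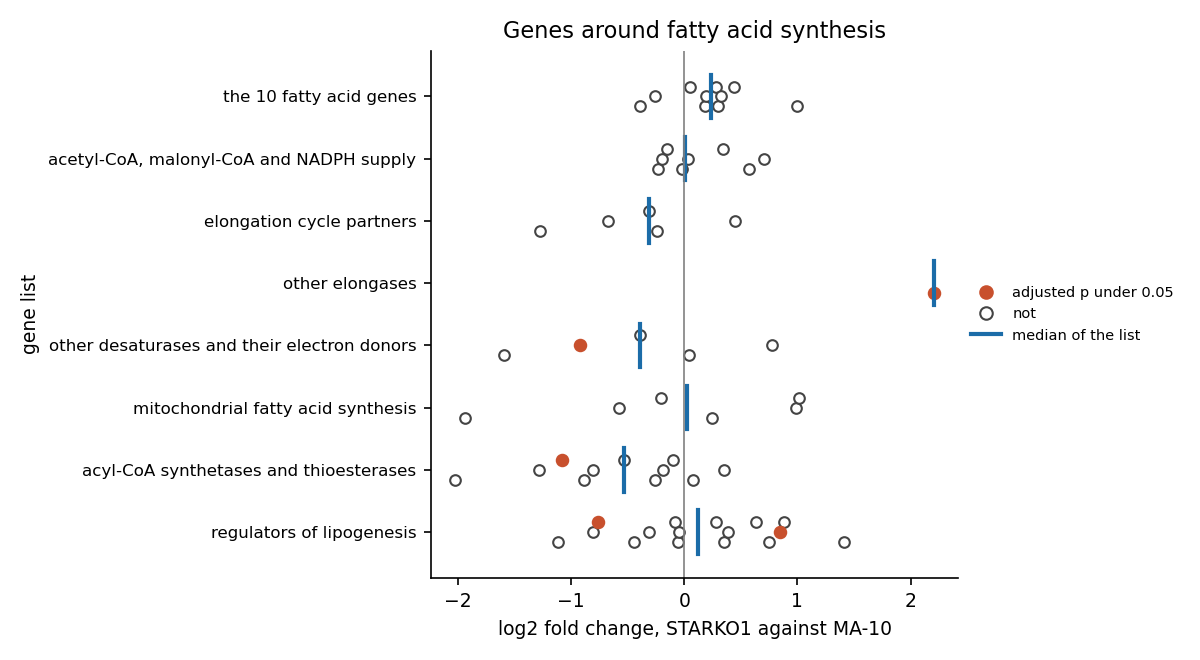
Log2 fold change of STARKO1 against MA-10 for the 10 fatty acid genes and for the 52 tested genes of 7 lists around them, where each point is a gene, filled orange where the adjusted p was under 0.05, and the blue bar is the median of the list. The median is 0.24 for the 10 genes and between -0.53 (acyl-CoA synthetases and thioesterases) and 0.12 (regulators of lipogenesis) for the lists with more than 1 tested gene, and the only tested gene of the other elongases is Elovl4.

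The promoters of Acly, Elovl5 and Fasn are shown because Acly and Elovl5 had the highest log2 fold changes of the 10 genes and Fasn, the enzyme that uses the product of ACLY, had a value below 0. RefSeq sequences of GRCm38.p6 were matched for 7 of the 10 genes, and each line gives the 250 bases before the start of transcription, 5′ to 3′ on the strand of the gene. Capitals mark matches on either strand to the E box CACGTG, the CCAAT box CCAAT and the GC box GGGCGG, so that ATTGG and CCGCCC are matches on the other strand. The windows are chr11:100528001-100528250 for Acly (minus strand), chr9:77917115-77917364 for Elovl5 (plus strand) and chr11:120824548-120824797 for Fasn (minus strand).

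Acly: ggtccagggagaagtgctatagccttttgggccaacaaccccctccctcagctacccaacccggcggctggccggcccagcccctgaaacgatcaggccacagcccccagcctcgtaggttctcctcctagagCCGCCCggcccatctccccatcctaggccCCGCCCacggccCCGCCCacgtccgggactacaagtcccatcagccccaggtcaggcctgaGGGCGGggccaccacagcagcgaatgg
Elovl5: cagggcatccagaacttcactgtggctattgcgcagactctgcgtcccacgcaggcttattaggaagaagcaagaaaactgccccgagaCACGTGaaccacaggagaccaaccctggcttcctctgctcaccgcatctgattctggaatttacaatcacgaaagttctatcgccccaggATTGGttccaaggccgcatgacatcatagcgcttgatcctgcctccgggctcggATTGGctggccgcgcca
Fasn: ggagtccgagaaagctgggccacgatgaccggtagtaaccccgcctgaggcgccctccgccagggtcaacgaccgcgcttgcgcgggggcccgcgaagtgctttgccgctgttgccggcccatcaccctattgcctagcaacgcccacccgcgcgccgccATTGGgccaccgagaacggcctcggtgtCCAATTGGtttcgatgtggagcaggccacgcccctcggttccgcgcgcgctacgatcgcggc

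The Acly window held 4 GC boxes and none of the other motifs. The Elovl5 window held 1 E box and 2 CCAAT boxes, and the Fasn window 3 CCAAT boxes, of which 2, on opposite strands, overlap. Elovl1, with the lowest log2 fold change of the 10 genes (-0.40), had matched windows that are not shown. Its window chr4:118427843-118428092 held 5 GC boxes and 1 CCAAT box, and chr4:118429451-118429700 held 2 GC boxes. The Fads2 window held 1 GC box, and those of Elovl6 and Acaca held none of the motifs. GC boxes thus lay before genes with values above and below 0, and their part in the fold changes was not tested. Over the 32851 promoter windows of the same length in the table, 6.02% held an E box, 33.8% a CCAAT box and 32.7% a GC box. A match is a description of the letters in the window, and the counts do not show whether a factor binds there.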

How the data were processed

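Gene expression was measured by sequencing RNA of MA-10 and STARKO1 cells (3 libraries each). The values deposited by the authors are estimated counts, 1 column a library, without scaling for library size. Per the labels, reads were processed with STAR 2.6.1d and Partek on mm10, and the libraries were made with a stranded total RNA kit. The annotation, the counting settings and the test used for the counts are not given in the sources used here. Some value was fractional for 54.2% of genes, and every listed gene had at least 10 counts in total.

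Estimated counts were rounded and tested with edgeR 4.0.16 in R 4.3.3 (filterByExpr, TMM, glmQLFit and glmQLFTest, Benjamini-Hochberg adjustment over all genes tested, threshold 0.05). The standard error is the size of the log2 fold change divided by the square root of F, and 95% intervals use the t distribution. CPM are relative to the TMM-scaled library size. Coordinates and merged exon lengths came from GENCODE vM21 (GRCm38), in which 14660 genes were found by symbol and chromosome and 14617 had the same start, and the gene end was taken from that annotation. Alternatives were DESeq2 1.42.0, other scalings and filters, gene length offsets, removal of the 50 most abundant genes, unrounded counts, a replicate block and leaving out each library. Scripts were tested on simulated counts with 200 changed genes and the same spread for all genes. The edgeR fit recovered 97% of the 4-fold and 26% of the 2-fold changes, and 7.52% of its calls were false. Ratios used an exact permutation test (scipy 1.17.1), and tables and figures used Python 3.11.15, pandas 2.3.3 and matplotlib 3.10.9.

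The members, lists and tests were chosen with earlier results of these data known. All 10 members are named. Of each list of other genes, those with an adjusted p under 0.05 are named and, where fewer than 3 passed, those with the smallest p up to 3, with Srebf1, Acacb, Scd3, Scd4 and Fads3 always. Both cell lines have replicate numbers 1 to 3 in the labels, but the deviations of same-numbered libraries from their group means correlated only between -0.0165 and 0.0455 across genes, so the numbers were not taken as pairs. The lipid, steroid and protein measurements of the study were not analysed here.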

Additional observations from a re-analysis of the deposited data

How the results depend on the processing

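The count of the 10 genes that passed the threshold stayed at 0 under 9 of the 10 alternatives with all 6 libraries and was 2 with DESeq2. Under those 9 alternatives between 234 and 1175 of all genes passed, and with DESeq2 3385. Scd2 was itself removed with the 50 most abundant genes, so that fit held 9 of the 10. Over the fits that left out 1 library the count was between 0 and 7, and it was above 0 only without MA-10 replicate 1. That fit called 7990 of 12167 genes, while the other fits that left out 1 library called between 89 and 511 of all genes. A count of 0 of 10 does not by itself set these genes apart. Acly, Acaca, Fads1, Fads2, Elovl5 and Elovl6 kept their direction in every fit, and Scd2 in every fit that held it, but without MA-10 replicate 2 Acaca was 0.00475, Elovl6 0.0479 and Scd2 0.14, and without MA-10 replicate 3 Fads2 was 0.0736. With scaling by library size alone, Fasn turned to 0.10 and Elovl1 to 0.0464, while the median over all genes rose from -0.05 to 0.38, so both remained below that median. Fasn ranged from -0.41 to 0.0601 (without MA-10 replicate 1) and Scd1 from -0.00354 to 0.16 (the lowest without MA-10 replicate 2) over the fits that left out 1 library, and the cause was not tested.

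Over all genes, 1079 were differentially expressed in the main comparison, 3385 with DESeq2, 695 with at least 10 counts in every library, 330 with scaling by library size alone, 234 with the replicate block and 266 with gene length offsets and the replicate block, and between 89 and 7990 without 1 library. Of the calls, 63.6% were higher in STARKO1 with scaling by library size alone, against 47.5% with TMM. Of the other genes of the pathway, 5 of 52 passed in the main comparison and 17 of 54 with DESeq2, where 9.04% and 22.9% of all genes did. With upper quartile scaling 2 of 52 passed, where 829 of 11939 genes did. With scaling by library size alone 1 of 52 passed, where 2.76% of all genes did. With no filter on low counts 3 of 54 passed, where 947 of 14774 genes did. With the replicate block 0 of 52 passed, where 1.96% of all genes did. With gene length offsets and the replicate block 0 of 52 passed, where 266 of 11868 genes did. Without 1 library between 0 and 33 passed, where between 89 and 7990 of all genes did. With the replicate block 0 of the 10 fatty acid genes passed, as without it, and 1 of the 3 number pairs had each library correlate best with its own number. Star passed in every fit, with a log2 fold change between -5.23 and -4.76 without 1 library. The log2 difference of the ratio of Fads1 to Fads2 lay between -0.0143 (without MA-10 replicate 2) and 0.28 without 1 library, and those of the other 3 ratios kept their direction, that of Fasn to Acaca lying between -0.76 and -0.42 (without MA-10 replicate 2). Every edgeR fit, with all libraries or with 1 left out, and the DESeq2 fit assume for each gene a spread common to both cell lines. The MA-10 libraries spread more than the STARKO1 libraries for most genes, so the p-values and intervals of the main comparison and of DESeq2 share this limit. With 3 libraries a cell line, intervals are wide, and a miss of the threshold does not show equal levels. Levels of Scd3 and Elovl4 near the floor of 3 counts are limited by depth.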
